A study of Mus musculus with 24 samples.

Results

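The tricarboxylic acid cycle enzymes described here are 9 genes of the pathway, chosen with earlier results of these data known: Idh1, Idh2, Idh3a, Ogdh, Dlst, Suclg1, Fh1, Mdh1 and Mdh2. They belong to the 21755 protein-coding genes of chromosomes 1 to 19 and X, of which 10777 carried H3K9ac at the promoter in all 12 libraries. H3K9ac is the acetylation of lysine 9 of histone H3, a mark of active promoters. It was profiled by ChIPmentation, in which immunoprecipitated chromatin is tagged by a transposase, in spheroids, small cell clusters grown without attachment, of the mouse mammary carcinoma line 4T1 on day 5.

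Peak lists of 12 libraries were used, 3 per group. The scramble group carried a non-targeting control guide, the CPT1a knockout group was edited in the gene of the enzyme that admits long-chain fatty acids to mitochondria, and the KAT2a knockout group in that of an acetyltransferase of histone H3. All 3 groups received 75 µM palmitate according to their labels. The CPT1a knockout with acetate received 5 mM acetate, and its labels do not say whether palmitate was added too. A legend of the study, for a correlation plot of H3K9 acetylation, describes spheroids with CPT1a inhibited as cultured with palmitate, both with acetate and without it. Per the methods of the study, the knockout lines descended from a parental line with doxycycline-inducible Cas9, were infected with lentiviral guides to 2 exons of either gene and were selected with puromycin. The labels do not state which guide a library carried, nor whether libraries of a group came from separate cultures, so p-values measure only the spread between these libraries, which can be technical. Promoter peaks were called at Cpt1a and at Kat2a in 12 of 12 libraries, which does not check a cut in an exon. The 6 markers of 4T1 cells, among them Epcam and Krt8, had a promoter peak in all 12 libraries, whereas the 4 immune and the 3 endothelial markers had none in any. Of the 4 fibroblast markers, 3 had no peak and Col1a1 had 1 in 11 libraries. Of the 2 alveolar markers, Sftpb had no peak and Sftpc had 1 in 4 libraries.

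The cycle oxidises the acetyl group of acetyl-CoA and passes the electrons to the respiratory chain. Fatty acid oxidation, pyruvate and acetate all supply acetyl-CoA, and citrate drawn from the cycle carries acetyl units to the cytosol and nucleus, where they serve histone acetylation. Isocitrate dehydrogenases make alpha-ketoglutarate, the oxoglutarate dehydrogenase complex and succinyl-CoA ligase lead on to succinate, and fumarase and malate dehydrogenase close the circle at oxaloacetate. Cytosolic Idh1 and Mdh1 are counterparts of the mitochondrial Idh2 and Mdh2.

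A promoter was the window within 1 kb of any annotated start site. The fold enrichment of a peak is the pileup at its summit over the local background of the same library, as the peak caller wrote it, and it was not scaled between libraries. The value compared was therefore a rank: the percentile, within its library, of the strongest promoter peak of a gene among the 10777 genes, from 0 for the weakest to 100 for the strongest. A rank is relative, so a total gain or loss of acetylation cannot be seen in it.

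All 9 genes had a promoter peak in 12 of 12 libraries, against 49.5% of all protein-coding genes. The median of their mean ranks was 63.4, beside 51.8 over all genes tested. Mdh2 lay highest with a mean rank of 82.8 ± 8.67 (SD, n = 12 libraries), and Mdh1 and Ogdh lay lowest with 36.7 and 37.0. Within groups the spread was smallest for Mdh1, with a pooled SD of 5.84 rank points, and largest for Idh3a, with 20.4, beside a median of 11.9 over all genes.

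In the other 3 groups together against scramble, limma called 2 of the 9 genes, beside 11.6% of all genes tested. Mdh1 was lower outside the scramble group, with a mean rank of 60.1 ± 5.41 (SD, n = 3) in scramble and 28.9 ± 6.003 (SD, n = 9) over the other libraries. Idh2 was higher, with 28.7 ± 11.3 (SD, n = 3) in scramble and 71.5 ± 17.4 (SD, n = 9) elsewhere. The remaining genes did not pass the test in any comparison of ranks.

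The scramble libraries also differed from the others as libraries. They held 29176 to 34370 peaks, and the other 9 held 16212 to 24639. Between 43.5% and 55.6% of the genes tested had more than 1 promoter peak in a scramble library, and between 17.0% and 37.1% in the others. The calling depth, which is the background coverage recovered from the peak values, was 1.87 to 2.52 in scramble and 0.554 to 1.91 elsewhere, lowest in CPT1a knockout replicate 3. Fewer peaks and scramble membership cannot be told apart in this design. With the log2 number of peaks as a covariate, limma called none of the 9 genes in any comparison, while 4 of them had an unadjusted p under 0.05 in the contrast of the other 3 groups with scramble. The differences were larger with the covariate, at -41.2 points for Mdh1 (adjusted p = 0.24) and 69.6 points for Idh2 (adjusted p = 0.18) in that contrast.

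**Figure D1:**
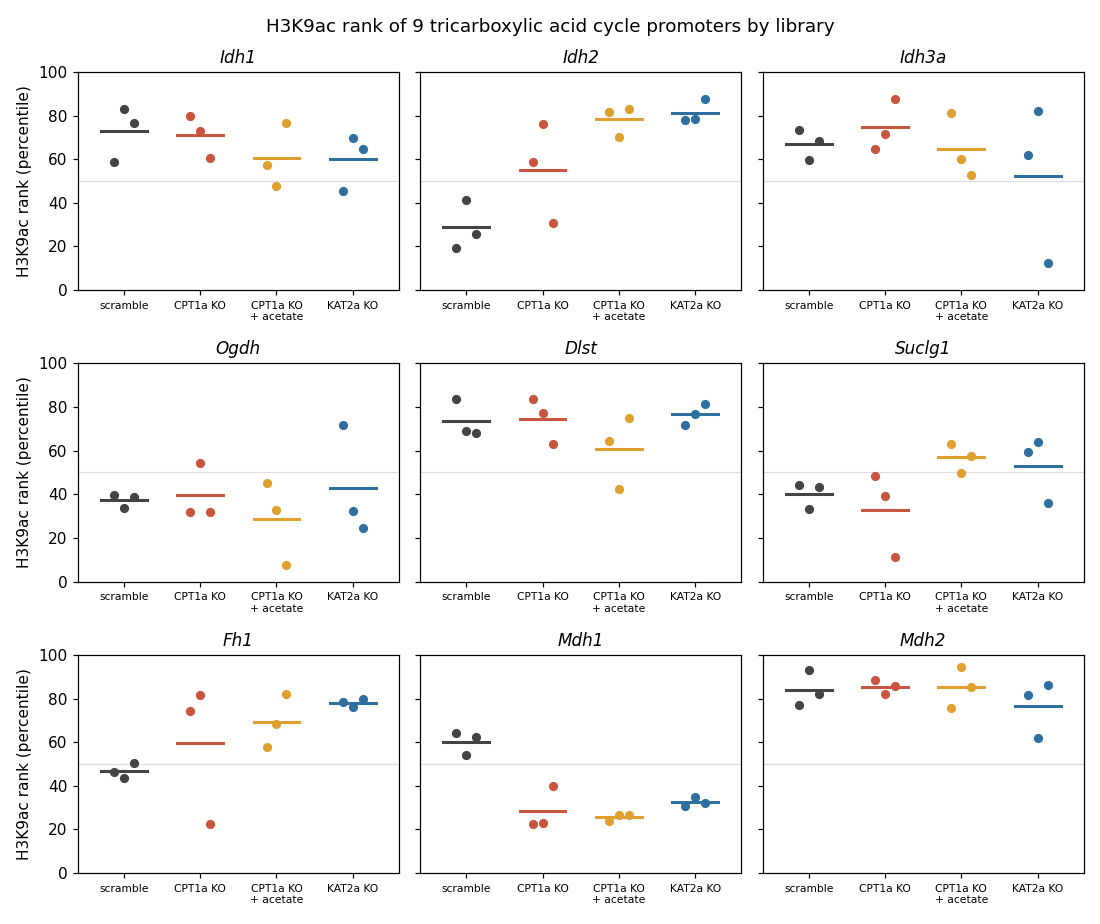
H3K9ac rank (percentile within the library, vertical axis) of the 9 promoters in each of the 12 libraries, with groups along the horizontal axis; points are libraries and bars are group means. The 3 scramble points of Mdh1 lie between 53.9 and 64.1, above all other libraries, and those of Idh2 lie between 19.2 and 41.1.

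The positions of the peaks are given in GRCm38 and GENCODE vM21. The stretch shared by the Idh2 peaks of all 12 libraries was chr7:80114079-80115362, on the minus strand gene, and overlapped exon 1. The shared stretch of the Mdh1 peaks was chr11:21571008-21571765, on the minus strand gene, downstream of the start site at 21572193, and overlapped exon 1. That of Fh1 was chr1:175624632-175625625, again on the minus strand gene, and overlapped exon 1. The windows within 1 kb of the start sites held 53.7% GC at Idh2, 42.7% at Mdh1 and 43.5% at Fh1, beside a median of 50.3% over the genes tested.

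The upstream sequences of Idh2 and Fh1, and the CCAAT sites of Mdh1, are shown because these 3 genes carry the largest rank differences between scramble and the other groups. They are RefSeq sequences (GRCm38.p6), written 5′ to 3′ along the gene, where an entry was found for 8 of the 9 genes. Idh3a had no entry. Capitals mark CCAAT, the box bound by NF-Y, and GGGCGG, the box bound by Sp and KLF factors, on either strand. The stretches of Idh2 (chr7:80115351-80115500, minus strand) and of Fh1 (chr1:175625636-175625785, minus strand) are the 150 bases before the RefSeq start. The Mdh1 sites (chr11:21572059-21572087 and chr11:21571992-21572020, minus strand) have 12 bases on each side. They lie upstream of the RefSeq start of Mdh1 but downstream of the GENCODE start at 21572193, from which its summits were measured. The Idh2 stretch likewise contains the GENCODE start of Idh2, at 80115392.
Idh2: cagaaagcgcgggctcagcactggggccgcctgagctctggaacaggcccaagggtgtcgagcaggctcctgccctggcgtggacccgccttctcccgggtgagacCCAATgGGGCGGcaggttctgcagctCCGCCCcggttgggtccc
Fh1: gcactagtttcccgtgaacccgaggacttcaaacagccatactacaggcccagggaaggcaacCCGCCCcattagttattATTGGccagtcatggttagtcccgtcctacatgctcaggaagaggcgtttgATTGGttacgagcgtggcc
Mdh1 site 1: cctcctctcctgCCAATtgctgagcgcca
Mdh1 site 2: cacagacgcgctCCAATcaccgaggctca

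CCAAT or its complement was found in the promoters of Idh1, Idh2, Ogdh, Fh1 and Mdh1, and in 37.4% of 32544 distinct RefSeq promoters of the same length. GGGCGG was found at all of the 8 genes but Suclg1, and in 35.9% of the promoters. TGACGTCA, the cyclic AMP response element, was present at Ogdh and Mdh2 and in 1.80% of promoters. GCGCATGCG, the site of the mitochondrial regulator NRF1, was present at Ogdh alone among the 8 genes and in 1.76% of promoters. Ogdh has 6 entries and therefore more chances of a match. CACGTG, the E-box, was found at Ogdh alone and in 7.17% of promoters. CCGGAAG, the ETS site, occurred only at Dlst (8.91% of promoters), AAGGTCA, the half-site of oestrogen-related receptors, only at Ogdh (4.71%), and AAGATGG, the YY1 site, at none of the 8 genes (6.37%). The matches carry no measure of binding, and 2 of the 3 Sp/KLF matches at Dlst overlap each other.

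The isocitrate dehydrogenases come first in the cycle. The Idh2 rank, for the mitochondrial NADP-dependent enzyme, was 19.2, 41.1 and 25.7 in the scramble libraries. It was 58.7, 75.9 and 30.7 in the CPT1a knockout, 81.7, 70.1 and 82.8 with acetate, and 77.7, 78.5 and 87.7 in the KAT2a knockout. The acetate and KAT2a knockout groups lay wholly above scramble, and CPT1a knockout replicate 3 fell within the range of scramble. Idh2 rose by 52.6 ± 11.8 (SE) rank points in the KAT2a knockout (limma, adjusted p = 0.025) and by 49.5 ± 11.8 (SE) in the CPT1a knockout with acetate (adjusted p = 0.027). The CPT1a knockout differed by 26.4 ± 11.8 (SE) points with an adjusted p of 0.16. The calls in the KAT2a knockout and acetate groups were lost when scramble replicate 1 or 3 or any library of the edited group was left out, with adjusted p-values of 0.062 to 0.087 for the KAT2a knockout and 0.061 to 0.0995 for the acetate group. With the GC trend of each library removed, the difference was 41.1 points in the acetate group (adjusted p = 0.056). Ranked among all peaks of a library, it was 17.04 points in the KAT2a knockout (adjusted p = 0.26) and 15.5 points in the acetate group (adjusted p = 0.24). By the ranks among genes, the acetate group differed from the CPT1a knockout by 23.1 points, with a 95% interval from -2.01 to 48.3.

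Idh1, the cytosolic enzyme, shares its promoter with Pikfyve, a lipid kinase gene transcribed in the other direction from a start 204 bp away. The strongest peak of Idh1 was also the strongest peak of Pikfyve in 12 of 12 libraries, and its summit lay at -1032 to -509 bp from the Idh1 start, on the side of Pikfyve. A separate peak on the Idh1 side was called in the 3 scramble libraries and in 3 of the others. The Idh1 rank therefore mixes both genes. It ran from 58.9 to 83.1 in scramble, 60.6 to 80.0 in the CPT1a knockout, 47.5 to 76.6 with acetate and 45.6 to 69.6 in the KAT2a knockout, and these ranges overlap.

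Idh3a, the catalytic subunit of the NAD-dependent enzyme, had ranks of 59.6 to 73.1 in scramble. Its KAT2a knockout libraries spread over 61.9, 81.8 and 12.6, the widest spread of the 9 genes in any group. No difference was resolved: the 95% interval of the KAT2a knockout against scramble ran from -46.4 to 16.5 points.

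Ogdh and Dlst encode the catalytic and the succinyl-transferring subunits of the oxoglutarate dehydrogenase complex. Ogdh lay low, with 39.6, 33.6 and 38.9 in scramble, and reached 71.9 in KAT2a knockout replicate 1 and 7.49 in replicate 3 of the acetate group. Dlst lay high, with 83.5, 69.2 and 68.0 in scramble and between 42.6 and 83.8 elsewhere. Both genes overlapped scramble in every group. Dlst shares its promoter peak with Prox2, whose start lies 74 bp away on the other strand, in 12 of 12 libraries.

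Suclg1, the alpha subunit of succinyl-CoA ligase, ranked 44.3, 33.2 and 43.2 in scramble and 48.4, 39.4 and 11.1 in the CPT1a knockout. With acetate its ranks were 63.2, 49.9 and 57.5, above both of those groups without overlap. Against the CPT1a knockout this was a difference of 23.9 ± 11.3 (SE) points with a 95% interval from -0.23 to 48.1 (limma, adjusted p = 0.55). The comparison did not pass the test, and CPT1a knockout replicate 3, the library of lowest depth, held the lowest value.

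Fh1 encodes fumarase, which hydrates fumarate to malate. Its ranks were 46.1, 43.4 and 50.5 in scramble and 74.3, 81.8 and 22.7 in the CPT1a knockout. They were 57.9, 68.1 and 81.9 with acetate and 78.2, 75.9 and 79.7 in the KAT2a knockout. Of the 9 libraries outside scramble, 8 lay above all scramble libraries and CPT1a knockout replicate 3 lay below them. Fh1 differed by 22.2 ± 10.9 (SE) points between the other 3 groups and scramble (limma, adjusted p = 0.19), and by 28.4 points when CPT1a knockout replicate 3 was left out (adjusted p = 0.028). Ranked among all peaks of a library, Fh1 differed by 2.24 points (adjusted p = 0.85). In the KAT2a knockout the difference was 31.2 ± 13.3 (SE) points (adjusted p = 0.20).

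Mdh1, the cytosolic malate dehydrogenase of the malate-aspartate shuttle, ranked 64.1, 53.9 and 62.1 in scramble. Its ranks were 22.4, 22.8 and 39.9 in the CPT1a knockout, 23.9, 26.8 and 26.5 with acetate, and 30.8, 34.9 and 32.3 in the KAT2a knockout. Every library outside scramble lay below every scramble library. Mdh1 fell by 31.7 points (SE 7.74) in the CPT1a knockout (limma, adjusted p = 0.021) and by 34.4 points (SE 7.74) with acetate (adjusted p = 0.020). In the KAT2a knockout the difference was -27.4 ± 7.74 (SE) points with an adjusted p of 0.058. The CPT1a knockout call was lost without scramble replicates 1 or 3 or CPT1a knockout replicates 1 or 2 (adjusted p 0.057 to 0.061), and with the GC trend of each library removed (-20.8 points, adjusted p = 0.12). The acetate call was lost without scramble replicates 1 or 3 or any acetate library (adjusted p 0.054 to 0.075), with the GC trend removed (-24.3 points, adjusted p = 0.093) and with ranks among all peaks (-20.6 points, adjusted p = 0.054). The acetate group and the CPT1a knockout differed by -2.65 points, with a 95% interval from -19.1 to 13.8. The promoter is shared with Wdpcp, a planar cell polarity gene whose start is 42 bp away. The summit lay on the Mdh1 side in 12 of 12 libraries, the peak itself spanned the start site in 4 of them, and it was the strongest peak of both genes in 12 of 12 libraries.

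Mdh2, the mitochondrial malate dehydrogenase, had the highest mean rank of the 9 genes. It was 76.8, 93.2 and 82.0 in scramble, 88.4, 82.1 and 85.5 in the CPT1a knockout, 75.6, 94.6 and 85.1 with acetate, and 81.8, 62.0 and 86.3 in the KAT2a knockout. All groups overlapped scramble. The CPT1a knockout differed by 1.32 points, with a 95% interval from -16.2 to 18.8. Mdh2 shares its peak with Styxl1, which starts 95 bp away on the other strand.

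**Figure D2:**
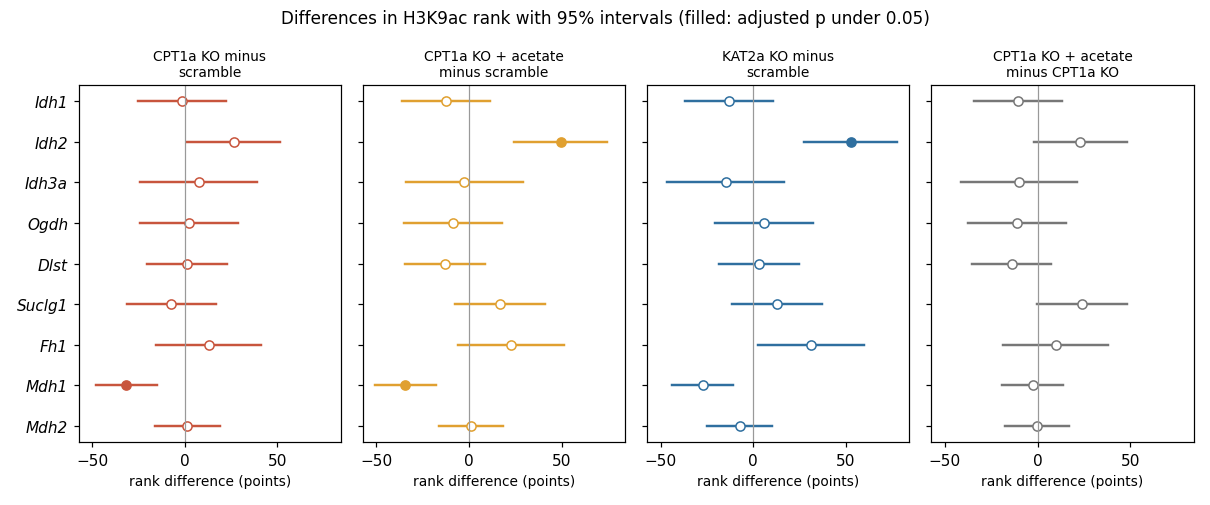
Difference in H3K9ac rank (points, horizontal axis) of each of the 9 genes in 4 comparisons, with 95% intervals from limma; filled points have an adjusted p under 0.05 over all 10777 genes. Mdh1 is filled in the CPT1a knockout with and without acetate, Idh2 in the acetate group and the KAT2a knockout, and no point is filled between the acetate group and the CPT1a knockout.

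The counts were read against all genes tested. In the CPT1a knockout against scramble, 0 of the 9 genes rose and 1, Mdh1, fell, beside 4.77% and 5.24% of all genes. In the KAT2a knockout 1, Idh2, rose and 0 fell, beside 1.70% and 2.71%. In the acetate group against scramble 1 rose and 1 fell, beside 1.66% and 3.90%. For the other 3 groups together against scramble 1 rose and 1 fell, beside 4.92% and 6.69%. Between the acetate group and the CPT1a knockout limma called 0 of the 9, none of which had an unadjusted p under 0.05, beside 0.0278% of all genes called higher and 0.0186% lower. The comparisons with scramble use the same 3 control libraries. The median difference of the 9 genes against scramble was 1.32 points in the CPT1a knockout, 3.13 in the KAT2a knockout and -2.51 with acetate, beside 0.22, 0.10 and 0.15 over all genes, so the 9 genes did not move in one direction.

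Groups that did not overlap were common across the genome. In the CPT1a knockout, 1 gene (Mdh1) lay wholly below scramble and none above, beside 15.3% and 15.5% of all genes. In the KAT2a knockout, Idh2 and Fh1 lay above and Mdh1 below, beside 14.3% and 15.0%. With acetate, Idh2, Suclg1 and Fh1 lay above scramble and Mdh1 below, beside 14.9% and 17.0%. Against the CPT1a knockout, the acetate group lay wholly above for Suclg1 and wholly below for no gene, beside 5.47% and 8.69%. Against the other 9 libraries, scramble was separate for Mdh1, beside 8.12% of all genes that lay below scramble and 4.51% that lay above.

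The two-sided exact permutation test gave p = 0.1 for Mdh1 in each of the 3 comparisons with scramble, which is the smallest p that 3 libraries against 3 allow. Over all 220 ways of choosing 3 of the 12 libraries, the exact p was 0.00455 for Mdh1, the smallest possible, 0.00909 for Idh2 and 0.05 for Fh1. With limma the other 3 groups differed from scramble by -31.2 ± 6.32 (SE) points at Mdh1 (adjusted p = 0.0066) and by 42.9 ± 9.64 (SE) points at Idh2 (adjusted p = 0.011). Without scramble replicate 1, Idh2 differed by 38.1 points and lost its call (adjusted p = 0.073), and without scramble replicate 3 the adjusted p was 0.057. Ranked among all peaks of a library, promoter or not, Idh2 differed by 10.95 points (adjusted p = 0.21) and Mdh1 by -20.1 points (adjusted p = 0.010).

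The deposited fold enrichment shows how the Mdh1 rank moved. At Mdh1 it was 21.5, 20.2 and 21.7 in scramble and between 16.7 and 26.4 in the other libraries, so the values of scramble lay within those of the rest. The median over all genes tested was 18.7 to 19.4 in scramble and 18.5 to 31.4 in the others. Mdh1 lay at 1.04 to 1.16 times the median of its library in scramble and at 0.71 to 0.91 times elsewhere. At Idh2 the fold enrichment was 12.3, 17.5 and 13.4 in scramble and 14.8 to 40.1 elsewhere, or 0.66 to 0.90 times the median of the library against 0.80 to 1.51 times.

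**Figure D3:**
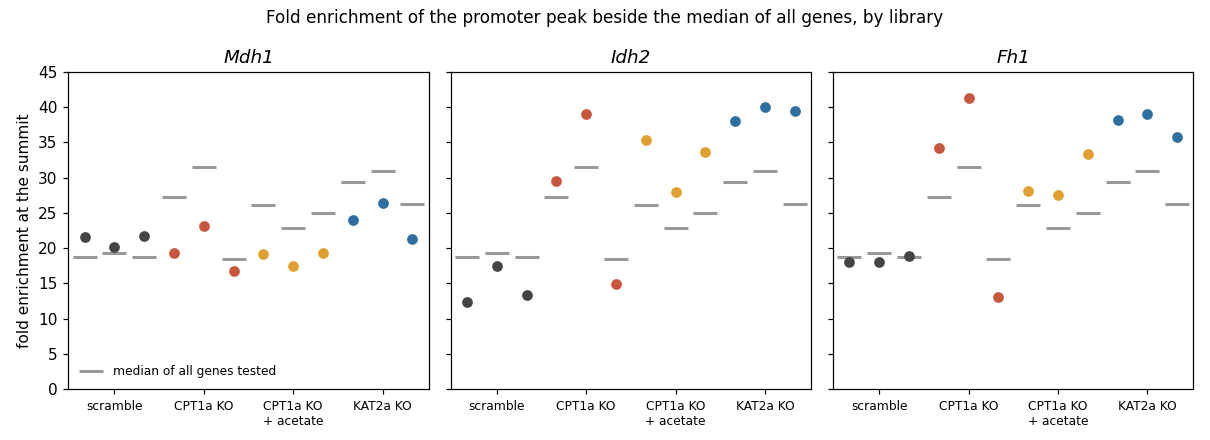
Deposited fold enrichment at the summit (vertical axis) of the strongest promoter peak of Mdh1, Idh2 and Fh1 in each library, with grey bars for the median over the 10777 genes of the same library. Mdh1 stays between 16.7 and 26.4 in all 12 libraries while the median of all genes runs from 18.5 to 31.4, and Idh2 and Fh1 lie well above the median in the KAT2a knockout.

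Peak shape was compared next. The strongest peak of Dlst was the widest of the 9 genes in every scramble library, with 4889, 3396 and 4281 bp, and measured 2023 to 3283 bp elsewhere. Whole lists differed in width: the median promoter peak spanned 2120 to 2886 bp in scramble and 1444 to 2429 bp in the others. After the median of the library was taken off, Dlst was narrower by -0.30 ± 0.09 (SE) on the log2 scale in the other 3 groups than in scramble (limma, adjusted p = 0.038). This call was lost when the bases covered within the promoter windows were compared instead (-0.03, adjusted p = 0.78), with summed lengths of the promoter peaks (-0.15, adjusted p = 0.14), with merged peaks (-0.21, adjusted p = 0.17), and when any of 8 libraries was left out, with an adjusted p of 0.051 without scramble replicate 1 and of 0.17 without scramble replicate 3. No other width differed by limma. In the CPT1a knockout 0 of 9 widths were called and 2 had an unadjusted p under 0.05, beside 7.44% of all genes wider and 7.27% narrower. In the KAT2a knockout 0 were called and 1 had an unadjusted p under 0.05, beside 6.08% and 5.93%. With acetate 0 were called against scramble, beside 5.53% and 4.49%, and 0 against the CPT1a knockout, beside 0.00% and 0.00%, with none at an unadjusted p under 0.05 in either. For the other 3 groups together 0 were wider and 1 narrower, beside 10.9% and 12.1%.

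Of the promoters shared with an opposite gene, those of Idh1, Mdh1 and Mdh2 were called as separate peaks around the start site in some libraries, while Dlst had 1 peak there in all 12. At Mdh2 there were 2 peaks in all 3 scramble libraries, 1 in all 3 CPT1a knockout libraries, 2, 2 and 1 with acetate and 1, 1 and 2 in the KAT2a knockout. In scramble the weaker Mdh2 peak, on the side of Styxl1, had a fold enrichment of 8.56 to 9.25, against 24.6 to 32.5 on the Mdh2 side. At Mdh1 there were 2 peaks in 8 libraries and 1 in 4. The unshared promoters of Idh2, Idh3a, Ogdh, Suclg1 and Fh1 were also split, each in 1 to 3 libraries. The strongest peak of Idh2 and that of Fh1 spanned the start site in 11 of 12 libraries each.

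Summits lay downstream of the start in all 12 libraries at Idh2, Idh3a, Ogdh, Suclg1, Fh1, Mdh1 and Mdh2. At Fh1 the summit was 792, 880 and 793 bp downstream in scramble and 377 to 558 bp in the other 9 libraries, without overlap. At Suclg1 it was 712, 619 and 722 bp in scramble and 531 to 601 bp elsewhere. This comparison was chosen after the positions were seen. Beside these 2 of the 9 genes, 33.8% of all genes tested had scramble summits further downstream than those of all other libraries. Idh1 was the 1 gene with summits further upstream in scramble, beside 6.88% of all genes. The median move of the summit from scramble to the other 9 libraries was -76 bp, that is upstream, over the 9 genes and -172 bp over all genes.

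**Figure D4:**
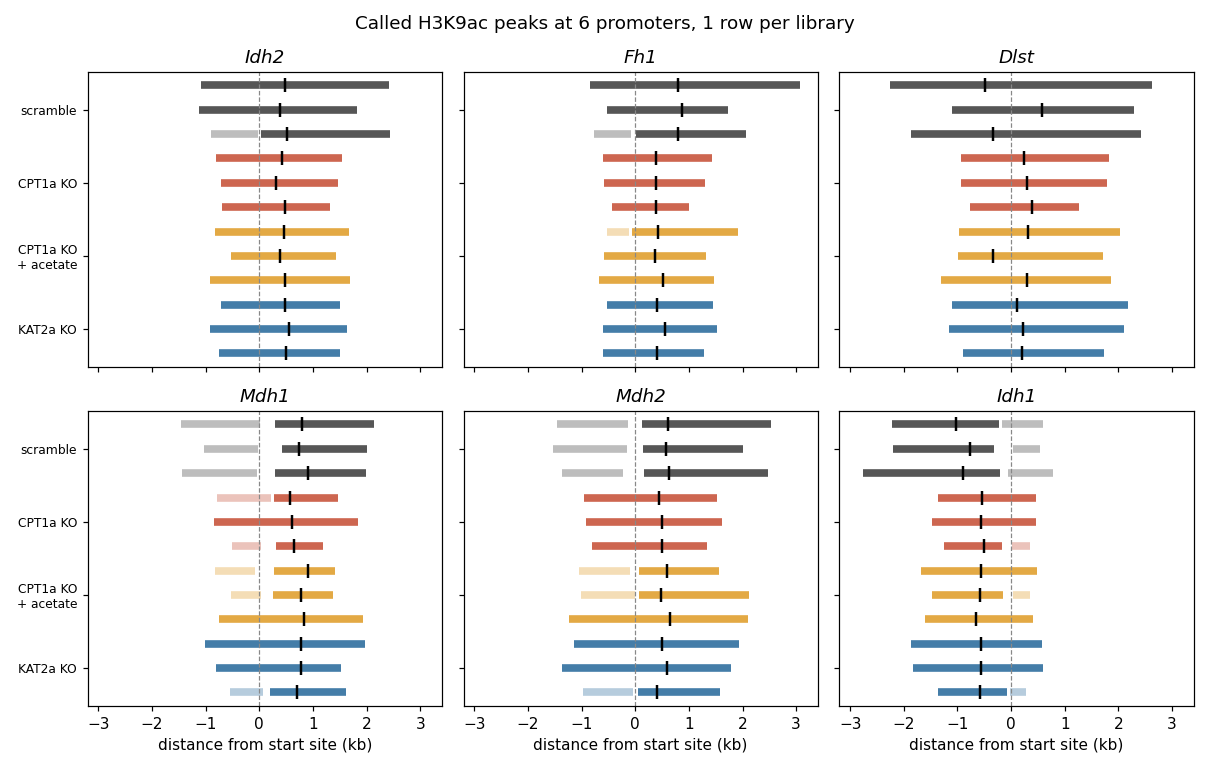
Called H3K9ac peaks at 6 promoters, 1 row per library, along the distance from the principal start site (kb, positive into the gene); full colour is the strongest peak, pale colour a weaker one, and black ticks are summits of the strongest peak. Fh1 summits lie near 0.8 kb in scramble and nearer the start elsewhere, and Mdh1, Mdh2 and Idh1 are split around the start in all 3 scramble libraries.

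The rest of the pathway was taken from 3 lists. Of the 12 remaining enzymes of the cycle, all had a promoter peak in every library. By rank 2 rose and 0 fell in the CPT1a knockout, beside 4.77% and 5.24% of all genes. Sdhc, a membrane anchor of succinate dehydrogenase, ranked 55.5, 30.5 and 55.4 in scramble and 87.2, 79.2 and 79.9 in the CPT1a knockout, a difference of 35.01 ± 9.90 (SE) points (limma, adjusted p = 0.037). Suclg2, the GTP-specific partner of Suclg1, ranked 32.8, 31.1 and 30.8 in scramble and 63.3, 61.1 and 74.1 in the CPT1a knockout, a difference of 34.6 ± 10.4 (SE) points (adjusted p = 0.047). Neither group of values overlapped scramble, beside 15.5% of all genes that lay wholly above scramble in the CPT1a knockout. Sdhc also rose in the other 3 groups together, by 32.3 ± 8.09 (SE) points (adjusted p = 0.019). Ranked among all peaks of a library, Sdhc differed by 8.96 points in the CPT1a knockout (adjusted p = 0.18) and by 8.83 in the other 3 groups (adjusted p = 0.13), and Suclg2 by 7.37 points (adjusted p = 0.31). In the CPT1a knockout both calls were also lost without any library of that group or of scramble (adjusted p 0.057 to 0.12). The call of Sdhc was lost without acetate replicate 1 as well (adjusted p = 0.053), and that of Suclg2 without any acetate library or KAT2a knockout replicate 1 (adjusted p 0.058 to 0.063). In the other 3 groups Sdhc lost its call without scramble replicate 2 (adjusted p = 0.092). By rank the 12 enzymes gave no call in the KAT2a knockout (lowest adjusted p 0.082), with acetate against scramble (0.068) or with acetate against the CPT1a knockout (0.42). By width 0 were wider and 5 narrower in the CPT1a knockout, 3 narrower in the KAT2a knockout, 3 narrower with acetate and 6 narrower in the other 3 groups against scramble, beside the 7.27%, 5.93%, 4.49% and 12.1% of all genes given for narrower widths.

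Of the 12 genes of pyruvate entry, 11 were tested and none passed by rank in any comparison. The lowest adjusted p among them was 0.066, in the other 3 groups against scramble. By width 1 was wider and 1 narrower in the CPT1a knockout, beside 7.44% and 7.27% of all genes. The same counts were found in the KAT2a knockout, beside 6.08% and 5.93%, and in the other 3 groups, beside 10.9% and 12.1%. With acetate against scramble 1 was narrower, beside 4.49%. Pdk4, a kinase that shuts pyruvate dehydrogenase, had no promoter peak in any library. Of the 12 genes of anaplerosis, lipoylation and hydroxyglutarate removal, 11 were tested. Pcx, pyruvate carboxylase, was left out with a promoter peak in 9 libraries. Got1, the cytosolic aspartate aminotransferase that works beside Mdh1 in the malate-aspartate shuttle, ranked 77.5, 45.9 and 68.8 in scramble and 28.0, 16.1 and 26.3 in the CPT1a knockout. It fell by 40.6 points (SE 10.3; limma, adjusted p = 0.024) and was the 1 gene of this list to pass by rank in any comparison. The call was lost without scramble replicates 1 or 3 or CPT1a knockout replicates 2 or 3 (adjusted p 0.051 to 0.090). By width 3 genes of the list were wider in the CPT1a knockout, 3 in the KAT2a knockout and 2 with acetate, and 2 were wider and 1 narrower in the other 3 groups, beside 7.44%, 6.08%, 5.53% and 10.9% of all genes wider. With acetate Got1 ranked 43.5, 56.7 and 42.0, and it differed from the CPT1a knockout by 24.0 ± 10.3 (SE) points (adjusted p = 0.51). Lias, the lipoyl synthase that serves the oxoglutarate dehydrogenase complex, lay at the top in every group, with mean ranks of 98.7 to 99.7, and was named after its values were seen.

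**Figure D5:**
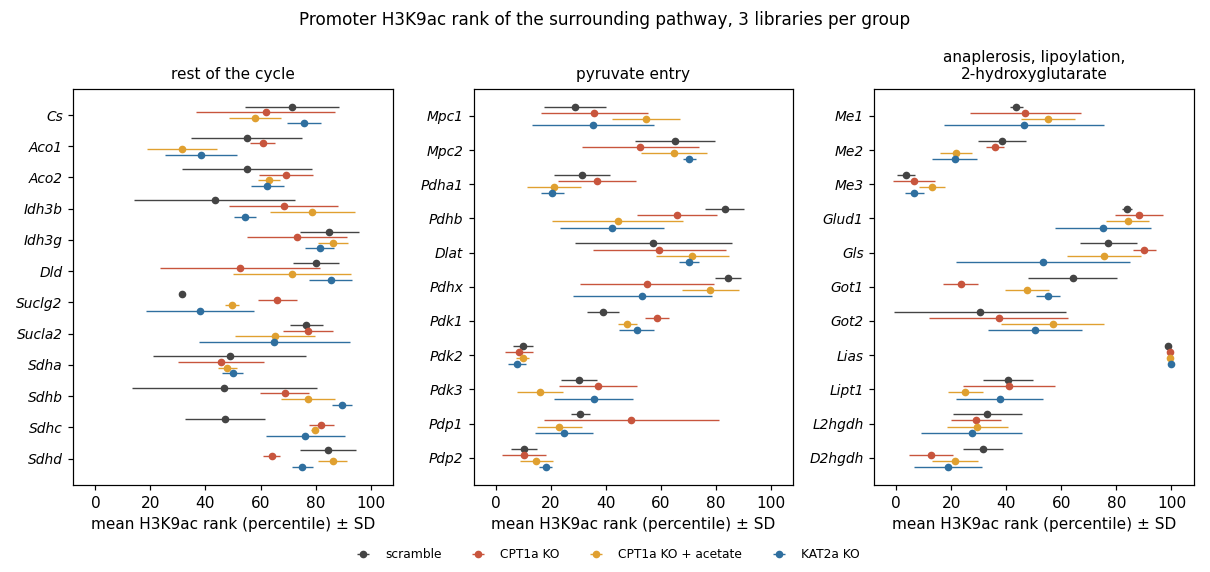
Mean H3K9ac rank (percentile) ± SD of 3 libraries per group for the 34 other pathway genes tested, by list. Sdhc and Suclg2 lie to the right of scramble in the CPT1a knockout, Got1 lies to its left, and Lias is at the top in all groups.

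The mean rank of the 9 genes ran from 48.1 in CPT1a knockout replicate 3 to 64.4 in KAT2a knockout replicate 1. The 5 other genes whose ranks followed this mean most closely over the 12 libraries were Slc25a22 (Pearson r = 0.91), Ezh1 (0.89), Ubxn1 (0.86), Pi4k2a (0.84) and Pigm (0.83). Slc25a22, a mitochondrial glutamate carrier, stayed between 9.71 and 27.8. They were picked as the highest of all genes, and the libraries they share differ in depth.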

How the data were processed

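The authors called H3K9ac peaks in each of the 12 libraries without pooling replicates and deposited 1 list per library in the narrowPeak layout. The submitters' processing notes name FastQC, Bowtie2, SAMtools, deepTools and MACS2 with the builds mm10 and dm6, whereas the methods of the study name BWA, so the aligner is uncertain. The labels and the methods also give different catalogue numbers for the antibody. The deposited fold enrichment is a ratio of summit pileup to local background, and the deposited −log10 p and q values and the score of the authors' caller describe a peak within its own list. The 12 input libraries and the Drosophila spike-in were not analysed here.

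Peaks overlapping 1 kb around any GENCODE vM21 start site were assigned to protein-coding genes. Ranks and log2 widths of the strongest peak were fitted with limma 3.58.1 (R 4.3.3, trend) over 10777 genes in 1 model of 4 groups, with Benjamini-Hochberg adjustment over all genes. A call was an adjusted p under 0.05. Single values were also tested by two-sided exact permutation. Read depth was not stated, and a relative calling depth was recovered from fold enrichment and p, assuming MACS2 formulas. The fit was tested on simulated data, and alternatives of window, ranking, depth, GC content, covariate, replicate block and single libraries were run. Named genes were the 9 genes, the called genes of 3 lists with the largest differences (at most 3 per list and comparison) and the 5 genes most alike in rank. The genes and lists were chosen with earlier results of these data known.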

Additional observations from a re-analysis of the deposited data

How the results depend on the processing

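Under the alternatives run, the called rank differences of Mdh1, Idh2, Sdhc, Suclg2 and Got1 and the called width difference of Dlst kept their directions, but each call was lost under at least 1 setting. By rank, limma called 1 gene in the CPT1a knockout, 1 in the KAT2a knockout and 2 each with acetate and in the other 3 groups against scramble. With the number of peaks as a covariate each of these counts was 0, and limma then called 0, 0, 3 and 0 of all genes. The called differences were then between -41.2 and -44.5 points for Mdh1 and between 69.6 and 75.1 for Idh2 (adjusted p 0.13 to 0.36). In the CPT1a knockout Sdhc differed by 43.8 points (adjusted p = 0.52) under this covariate. Got1 differed by -36.2 (adjusted p = 0.62) and Suclg2 by 15.2 (adjusted p = 0.85), both smaller than without it. With the GC trend removed the count was 0 in the CPT1a knockout and 0 with acetate, beside 9.47% and 4.31% of all genes. Among all peaks of a library it was 0 in the KAT2a knockout, 0 with acetate and 1 in the other 3 groups, beside 0%, 0.37% and 8.51% of all genes. Ranked by −log10 p it was 2 in the CPT1a knockout and 2 in the KAT2a knockout, beside 31.9% and 21.6% of all genes. With fold enrichment recomputed at the lowest recovered calling depth it was 2 in the KAT2a knockout, beside 9.62% of all genes. Mdh1 was added there with an adjusted p of 0.032. Numbers of peaks were not matched by this, and the recovered depth had 2 solutions for up to 79.5% of the promoter peaks of a library. The exact permutation test of scramble against the other 9 libraries, adjusted over all genes, called 0 (adjusted p = 0.054 for Mdh1) and 0.00% of all genes; 3 libraries against 3 could not pass. Leaving out 1 library gave 0 to 1 genes in the CPT1a knockout, 0 to 2 in the KAT2a knockout, 0 to 2 with acetate and 1 to 3 in the other 3 groups. The calls were lost without CPT1a knockout replicates 1 or 2 in that group, without any library of the acetate or the KAT2a knockout group in theirs, and without scramble replicates 1 or 3 in all but Mdh1 in the other 3 groups, whose adjusted p was at most 0.035. Windows of 500 bp or 2 kb, a −log10 q of at least 4, normal scores, summits within 1 kb and start sites of protein-coding transcripts alone, the last chosen after seeing the data, gave the same counts by rank for the 9 genes. In the CPT1a knockout the call of Sdhc was lost with normal scores (adjusted p = 0.057). That of Suclg2 was lost with summits within 1 kb (adjusted p = 0.056).

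By width, where limma called 0 genes in each group and 1 in the other 3 groups against scramble, the bases covered gave 3 in the CPT1a knockout, 1 in the KAT2a knockout, 1 with acetate and 3 in the other 3 groups, beside 25.0%, 13.8%, 12.02% and 27.7% of all genes. Without centring the counts were 2 in the CPT1a knockout and 2 in the other 3 groups, beside 26.4% and 25.6% of all genes. In the CPT1a knockout merged peaks gave 1 (Ogdh) and summed lengths 1 (Suclg1), beside 21.2% of all genes each. In the other 3 groups these settings called Ogdh and Suclg1 in place of Dlst, beside 29.3% and 28.7%. With the number of peaks as a covariate the count was 0 in the other 3 groups, beside 2.39%. Leaving out 1 library gave 0 to 2 genes in the CPT1a knockout and 0 to 2 in the other 3 groups. The cause was not tested.

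The replicate numbers did not pair the libraries: over 18 pairs with the same number, deviations from the group means correlated by -0.062 to 0.067 for ranks and by -0.23 to 0.26 for widths. A replicate block left every rank call of the 9 genes in place, though not that of Suclg2 (adjusted p = 0.058), with an adjusted p of 0.013 for Mdh1 in the other 3 groups, and gave 0 width calls there.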
